A study of Mus musculus with 2 samples.

Results

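The natural killer gene complex genes of the mouse were taken as all protein-coding genes on chromosome 6 whose symbol starts with Klr or Clec2, which gave 32 of 21853 protein-coding genes in the GENCODE M21 annotation of build GRCm38/mm10. Of these, 29 lay in an unbroken run from Klrb1a to Klra2, chr6:128609227-131247362, a stretch of 2.64 Mb called the complex here, in which neighbouring members start less than 1 Mb apart. The other 3 lay elsewhere on the chromosome: Klrg2 and Clec2l next to each other at chr6:38625693-38637242 and chr6:38663069-38680864, and Klrg1 at chr6:122270596-122282882. Open chromatin was measured by DNase-seq, in which DNase I cuts accessible DNA, in whole thymus of newborn B6NCrl mice (postnatal day 0, healthy, both sexes pooled). There was 1 group of 2 biological replicates, which carry different biosample labels and the same donor label, so the spread between them may be partly technical. With no second group, no condition was compared and no p-value is given.

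The members code for lectin-like receptors and their ligands. Most Klr products sit on natural killer (NK) cells and some T cells, where inhibitory receptors recruit phosphatases, while activating receptors signal through adaptors such as the products of Tyrobp and Hcst. The Klra (Ly49) receptors and the pairs of the Klrd1 product (CD94) with Klrc (NKG2) products recognise MHC class I molecules, the Klrk1 product (NKG2D) recognises stress-induced relatives of them, and several Klrb1 (NKR-P1) receptors recognise Clec2 (Clr) products encoded among them. T cells mature in the thymus, and small numbers of NK and NK-like cells also develop there.

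Each replicate had a deposited list of 150 bp peaks, 154812 in replicate 1 and 139702 in replicate 2, and a list of wider hotspots, 135932 and 121064. Each peak carries the authors' score, a whole number from 1 to 150 with a median of 46 in replicate 1 and 41 in replicate 2. A peak of replicate 1 that overlapped a peak of replicate 2 by at least 1 bp was counted as shared. All 10 T cell markers listed had a promoter peak in both replicates, as did 10 of 14 NK cell markers, 2 of 5 B cell markers, 4 of 5 myeloid, 2 of 3 erythroid, 2 of 3 endothelial and 1 of 5 thymic epithelial markers, beside 62.2% of all coding genes. The shares of the NK, erythroid and endothelial lists lie near that of all genes. That background is lower for promoters with few CpG dinucleotides, as given below, and the lists were not matched for it. Nothing is read from these lists. The NK markers without it were Ncr1, which had a promoter peak in replicate 2 alone with a score of 15, and Gzmb, Fcgr3 and Xcl1. In whole tissue, fewer cells of a type with an open site and less opening per cell cannot be told apart.

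Few members had an open promoter. A promoter peak was one with its midpoint within 1000 bp of a coding transcription start site (TSS). Peaks of this kind were present in both replicates at 6 of 32 members, against 62.2% of all coding genes: Clec2d, Clec2i, Klrb1c, Klrd1, Klra5 and Klrg2. At Klrg2 the peaks of the replicates did not overlap each other, which left 5 members with a shared promoter peak. Their sequences, the strongest shared promoter peak of each, are shown 5′ to 3′ on the plus strand of GRCm38 as RefSeq gives it, because they are the only promoters of the family open at the same place in both replicates. Capitals mark matches on either strand to TGTGGT (the RUNX core), GGAAGT (ETS), CTTTGAA (TCF/LEF), CAGCTG and CACCTG (E-boxes), GGTGTGA (T-box) or TGACTCA (AP-1), and overlapping matches run together.
Clec2d promoter, chr6:129180516-129180665: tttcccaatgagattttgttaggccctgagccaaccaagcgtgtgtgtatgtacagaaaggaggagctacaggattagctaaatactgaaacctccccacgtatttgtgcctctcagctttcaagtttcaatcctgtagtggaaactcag
Clec2i promoter, chr6:128887476-128887625: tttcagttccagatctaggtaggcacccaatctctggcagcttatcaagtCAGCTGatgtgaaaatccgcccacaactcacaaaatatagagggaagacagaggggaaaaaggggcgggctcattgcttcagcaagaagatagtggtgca
Klrd1 promoter, chr6:129591596-129591745: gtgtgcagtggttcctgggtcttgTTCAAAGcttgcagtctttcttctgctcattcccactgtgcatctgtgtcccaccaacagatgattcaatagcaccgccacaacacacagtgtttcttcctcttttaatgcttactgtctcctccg
Klrb1c promoter, chr6:128789896-128790045: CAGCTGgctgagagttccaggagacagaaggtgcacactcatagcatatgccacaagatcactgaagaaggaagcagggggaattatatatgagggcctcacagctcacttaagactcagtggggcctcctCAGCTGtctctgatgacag
Klra5 promoter, chr6:129917696-129917845: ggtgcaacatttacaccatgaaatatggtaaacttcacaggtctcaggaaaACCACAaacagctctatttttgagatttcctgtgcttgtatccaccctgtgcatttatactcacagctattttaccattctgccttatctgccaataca
The Klrb1c promoter peak held CAGCTG at 2 places, that of Clec2i held it at 1, that of Klra5 held 1 TGTGGT match and that of Klrd1 held 1 CTTTGAA match. The Clec2d peak held none of the 7 words.

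The 4 strongest distal shared peaks of the members in the complex, ranked by the mean percentile of the score within each list, were all at Klrb1c or Klrb1b, and they carry the main pattern described here. A distal peak was one over 1000 bp from any coding TSS, assigned to the gene of the nearest one within 100 kb.
Klrb1c upstream, chr6:128803156-128803305: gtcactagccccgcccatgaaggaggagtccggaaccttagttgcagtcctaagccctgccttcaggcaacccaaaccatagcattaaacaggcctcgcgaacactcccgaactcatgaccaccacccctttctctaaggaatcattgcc
Klrb1b upstream, chr6:128843116-128843265: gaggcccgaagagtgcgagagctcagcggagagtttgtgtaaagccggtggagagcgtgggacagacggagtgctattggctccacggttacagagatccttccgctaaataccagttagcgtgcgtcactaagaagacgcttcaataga
Klrb1c downstream, chr6:128764196-128764345: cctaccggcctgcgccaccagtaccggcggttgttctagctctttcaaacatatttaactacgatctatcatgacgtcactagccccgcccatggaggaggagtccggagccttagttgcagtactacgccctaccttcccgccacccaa
Klrb1b upstream, chr6:128838896-128839045: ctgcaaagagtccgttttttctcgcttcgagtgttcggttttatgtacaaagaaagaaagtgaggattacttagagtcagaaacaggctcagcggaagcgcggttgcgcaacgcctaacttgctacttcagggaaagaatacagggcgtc
None of these 4 peaks held any of the 7 words. Their GC contents were 54.7%, 54.0%, 56.0% and 47.3% in the order printed.

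Among the ligand genes, Clec2d, whose product is the ligand of the inhibitory receptor encoded by Klrb1b, had the strongest promoter peak of all members. Its score was 117 in replicate 1 and 120 in replicate 2, at percentiles 95.0 and 94.1 of their lists, and its midpoint lay 24 bp upstream of the TSS. A further shared promoter peak in the Clec2d intron scored 70 and 75. At Clec2i, whose product is a ligand of the Klrb1f receptor, the strongest promoter peak scored 76 and 74 and lay 37 bp upstream of the TSS. The strongest promoter peaks of both genes differed by at most 3 score units between replicates. A further shared Clec2i promoter peak scored 30 and 29, and Clec2i promoter peaks in replicate 2 alone scored 21 and 27.

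Promoter peaks of the receptor genes scored lower than the strongest ones of Clec2d and Clec2i. At Klrd1, which codes for the CD94 subunit common to the NKG2 pairs, the peak scored 34 and 30 and lay 111 bp upstream. At Klrb1c, which codes for the activating receptor that carries the NK1.1 antigen, the peak scored 31 and 28 and lay 756 bp upstream, in an intron of the overlapping gene Gm44511. Both scores of both genes lay below the 32nd percentile of their lists. The hotspots over the strongest promoter peaks of Clec2d and Clec2i reached the cap of 100 of the deposited −log10 q-value in both replicates. Those of Klrd1 had 3.56 and 4.51 and those of Klrb1c 1.52 and 4.51. Over the further shared Clec2i promoter peak they had 2.31 and 100. Klra5 (Ly49E) had 2 overlapping promoter peaks in replicate 1, scoring 22 and 21, which both overlapped a single peak of replicate 2 scoring 28. A further Klra5 promoter peak, in its intron with a score of 17, was in replicate 2 alone. Klrg2 scored 34 in replicate 1 and 40 in replicate 2, at different places. In replicate 2 alone, Clec2l had a promoter peak with a score of 24 and Klra1 (Ly49A) with a score of 14. The other 24 members had no promoter peak in either list, among them Klrk1, Klrc1, Klrc2, Klrc3, Klrg1 and 9 of the 11 Klra genes.

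The share of open promoters was set beside promoter composition. Members had a median of 6.5 CpG dinucleotides within 500 bp of the TSS, against 42 for all coding genes. The highest count inside the complex was 16, and of the 6788 coding genes with no more than that, 17.8% had a promoter peak in both replicates. Inside the complex 5 of 29 members did, or 17.2%, which is close to that background. Outside it, the CpG-rich promoters of Clec2l and Klrg2 (87 and 76 CpG) had a peak in replicate 2 alone and non-overlapping peaks, and Klrg1, with 19, had none. With a promoter window of 2500 bp the count rose to 8, since Klrc1 and Clec2g had shared peaks 1618 bp and 1630 bp from a TSS. With the stronger 50% of peaks it fell to 2.

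Klrb1c and Klrb1b had the most distal peaks of the members. Klrb1c had 30 in replicate 1 and 39 in replicate 2, of which 27 were shared. Only 139 of 21853 coding genes, 0.636%, had as many, and Klrb1c ranked 120th. Klrb1b, its upstream neighbour, had 25 and 28 distal peaks, of which 23 were shared, a number reached by 1.19% of coding genes. Per 100 kb of sequence nearer to the gene than to any other, Klrb1c had 52.0 distal shared peaks and Klrb1b 74.97. Klrb1b had no promoter peak in either replicate, so its distal peaks lay beside a start site with none. Counts depended on the settings: with the stronger 50% of peaks of each list Klrb1c had 17, and with start sites of genes of every biotype it had 17 and the other members together 28 in place of 69. With only the peaks of the complex in which at most 10% of 31-base words recur in the assembly, a filter chosen once the data had been seen, Klrb1c had 7. The other members together then kept 43 of 69, which include peaks outside the complex, whose words were not counted. The shares of coding genes above hold for the counts before any of these settings.

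**Figure D1:**
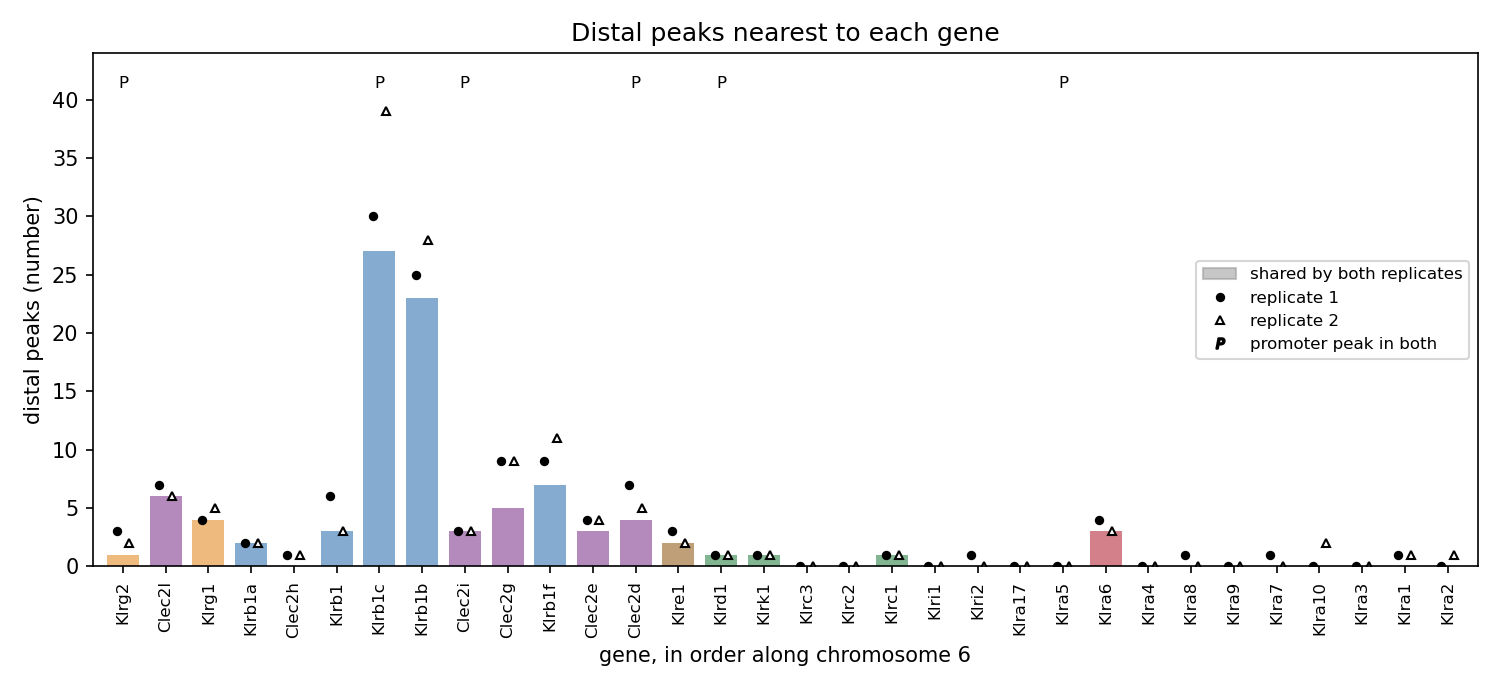
Number of distal peaks nearest to each of the 32 genes, in order along chromosome 6. Bars count peaks shared by both replicates, circles and triangles count the peaks of replicates 1 and 2, and P marks genes with a promoter peak in both. Klrb1c (27) and Klrb1b (23) stand above all other members, of which Klrb1f had the most (7), and most Klra genes have no bar.

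The distal peaks of both genes formed an array in 3 dense blocks, defined as runs of the shared distal peaks nearest to Klrb1c, Klrb1b or the read-through gene Gm44511 that overlaps them, with gaps of at most 10 kb. Peaks nearest to other genes were left out by this definition, among them 2 shared peaks of Klrb1 at chr6:128753976-128754125 and chr6:128754436-128754585, which lie less than 10 kb before block 1. Block 1, chr6:128759916-128770885, held 13 shared peaks in 10.97 kb, all nearest to Klrb1c, intergenic and 18.3 to 29.3 kb downstream of its TSS. Block 2, chr6:128793136-128808805, held 15 shared peaks in 15.67 kb, 3.92 to 19.6 kb upstream of the Klrb1c TSS and all in an intron of Gm44511. Of these, 14 were assigned to Klrb1c and 1 to Gm44511. Block 3, chr6:128829276-128854325, held 23 shared peaks in 25.05 kb, all assigned to Klrb1b, of which 15 were intergenic, 2 intronic and 6 in exons of other genes. The body of Klrb1c and its start site lay between blocks 1 and 2, and Klrb1b lay between blocks 2 and 3.

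**Figure D2:**
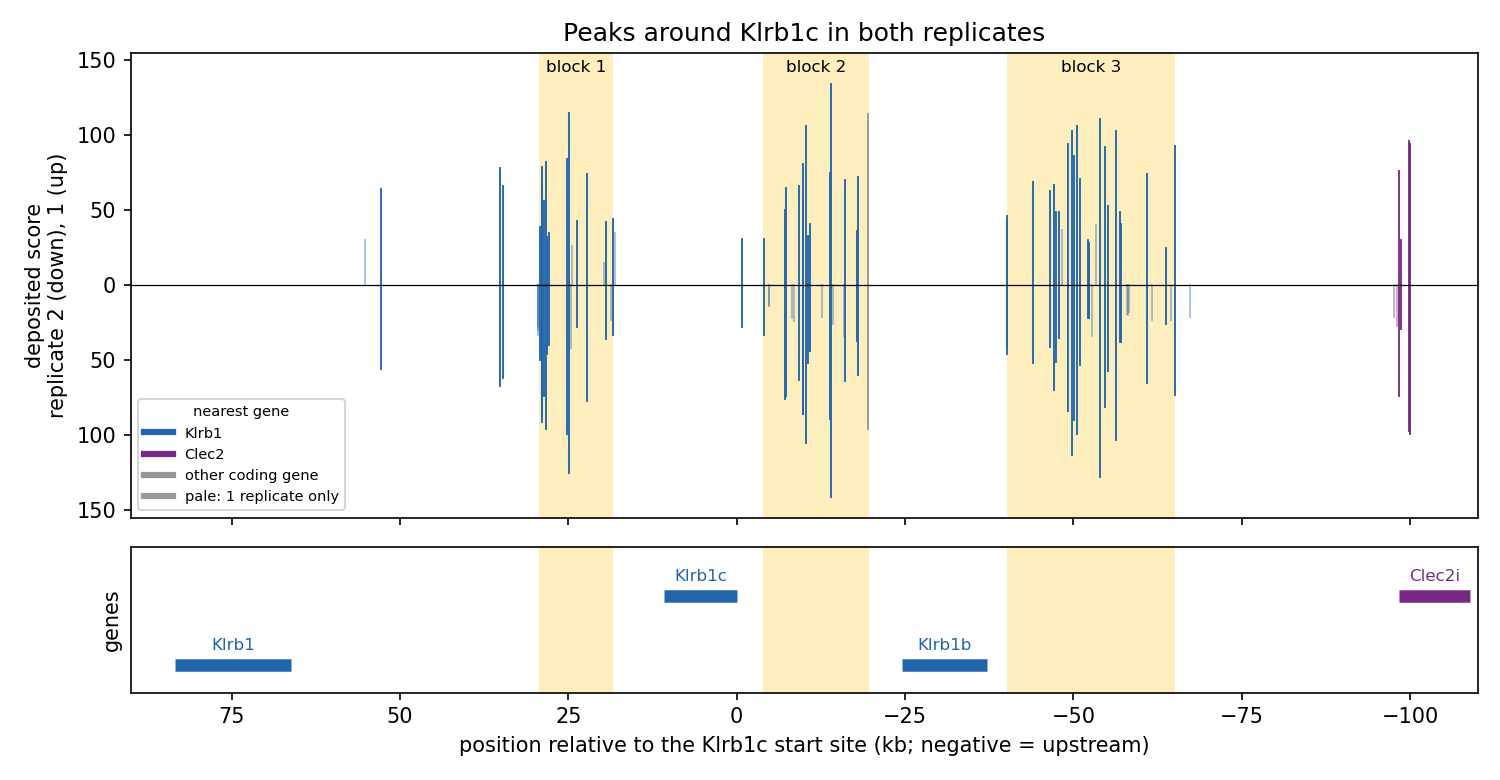
Deposited scores of peaks from Klrb1 to Clec2i by position relative to the Klrb1c start site in kb, replicate 1 upwards and replicate 2 downwards, coloured by nearest gene, with pale lines for peaks of 1 replicate only and shaded blocks. Dense peaks flank Klrb1c and Klrb1b on both sides in both replicates, while the Klrb1c promoter peak, scoring 31 and 28, is among the lower ones.

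The 51 shared peaks of the array had median scores of 66 in replicate 1 and 64 in replicate 2. All peaks of the complex with a counterpart had medians of 65 and 53. The distal shared peaks of the other members in the complex had 62.5 and 47. At Klrb1c the 27 distal shared peaks ran from 31 to 134 in replicate 1 (median 65) and from 28 to 141 in replicate 2 (median 74). At Klrb1b the 23 ran from 25 to 111 (median 67) and from 22 to 128 (median 53). The strongest, 14.0 kb upstream of the Klrb1c TSS, scored 134 and 141, at percentiles 99.2 and 99.4. The peaks at chr6:128764196-128764345, chr6:128799496-128799645, chr6:128763976-128764125 and chr6:128760816-128760965 followed at Klrb1c, with 115 and 125, 106 and 105, 84 and 99, and 82 and 96. The hotspots over 22 of the 27 Klrb1c peaks and 15 of the 23 Klrb1b peaks were at the cap in both replicates, so these cannot be ranked by their hotspots. At Klrb1b the strongest was the peak printed at chr6:128843116-128843265, with 111 and 128.

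The replicates did not rank these peaks alike. Of the 27 Klrb1c peaks, 21 had the higher percentile in replicate 2, including 10 of 13 in block 1. At Klrb1b it was 10 of 23, and at the other members of the complex 16 of 34. The share over all shared peaks of the lists is not given here. Peaks that overlap or are copies of each other are not independent, and the 27 Klrb1c peaks joined to 23 stretches. Klrb1c also had more distal peaks in replicate 2 than in replicate 1, although the list of replicate 2 is the shorter. Whether depth or the makeup of the tissue differed between the replicates was not tested.

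**Figure D3:**
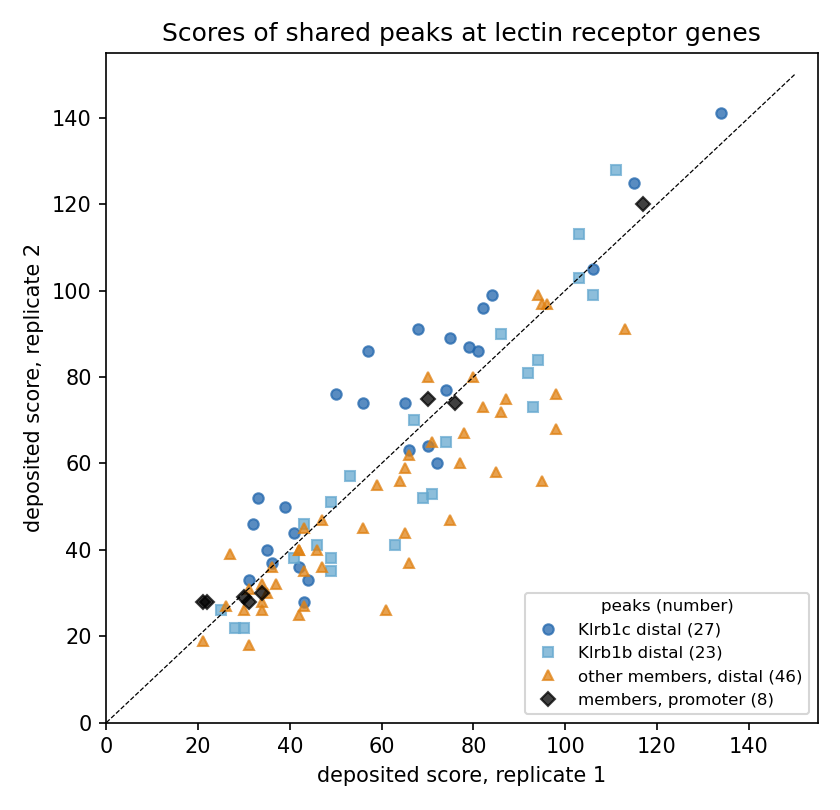
Deposited score in replicate 2 against replicate 1 for the shared peaks at members, 27 distal at Klrb1c, 23 distal at Klrb1b, 46 distal at other members and 8 at promoters, with the dashed line marking equal scores. Above the line lie 20 of the 27 Klrb1c peaks and 7 of the 46 peaks of the other members.

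Blocks 1 and 2 held copies of the same sequence. They aligned over 3.196 kb at 90.6% identity, in the same orientation and 38.8 kb apart, and over shorter stretches at 96.3% and 90.7%. Sequence just outside block 1 aligned with block 2 at 98.0% over 1.452 kb. Of the 13 peaks of block 1, 11 had a similar place in block 2, and at 8 of these places a shared peak was open too. Of the 15 peaks of block 2, 13 had a similar place in the complex and 11 of these places held a shared peak. The strongest Klrb1c peak, printed above, matched 135 of 150 bases at a place that overlaps the downstream Klrb1c peak printed above, and both were open. Block 3 shared less, with 7 of 23 peaks having a similar place, 5 of them open.

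Copies open at both places occurred elsewhere in the complex. A peak of Clec2i in its intron, scoring 96 and 97, matched a peak in the Clec2g intron that scored 47 and 47, and both sequences are shown, with capitals at the bases that do not match, because they are the nearest copies open at both places.
Clec2i intron, chr6:128889016-128889165: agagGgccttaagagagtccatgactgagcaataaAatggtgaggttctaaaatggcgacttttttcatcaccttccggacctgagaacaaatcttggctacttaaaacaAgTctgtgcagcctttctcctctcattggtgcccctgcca
Clec2g intron, chr6:128972811-128972961: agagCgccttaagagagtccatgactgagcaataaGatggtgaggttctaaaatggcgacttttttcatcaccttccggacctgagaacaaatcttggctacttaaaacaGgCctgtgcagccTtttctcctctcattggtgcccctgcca
They matched at all but 4 of the 150 bases of the Clec2i peak, and the Clec2i copy had the higher score in both replicates. The Klrb1a peak at chr6:128630116-128630265, scoring 43 and 45, had 96.3% identity to a Klrb1 peak that scored 78 and 67. A pair of Klrb1c peaks in block 2 matched a pair at Klrb1f at 95.4% and 95.1%. The Klra5 promoter peak was 94.6% identical to a Klra6 distal peak that scored 35 and 30, and it had 11 similar places in the complex.

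A sequencing read that fits several places cannot be placed by its sequence alone, and how the authors treated such reads is not given in the sources used here. Of the 31-base words in the complex, 34.9% recurred elsewhere in the assembly. Around member promoters the median was 13.03% (range 0 to 84.8%), against 2.33% for coding genes taken at regular steps of 10 through the annotation. Members with a promoter peak in both replicates had a median of 23.1% and those without 10.9%. Klrc3 and Klrc2, with 84.8% and 83.1%, had no peak of any kind. In the array the median over peaks was 19.2% in block 1, 11.7% in block 2 and 0% in block 3. When only peaks with at most 10% of recurring words were kept, Klrb1c retained 7 of 27 distal shared peaks and the other members 43 of 69. The 43 include peaks outside the complex, whose words were not counted, so the 2 shares are not alike. The part of read placement in any of these counts was not tested.

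The other Klrb1 receptor genes had fewer distal peaks than Klrb1c and Klrb1b. Klrb1f had 9 and 11, of which 7 were shared. Its strongest, 8.79 kb upstream, scored 95 and 97. Klrb1 had 6 in replicate 1 and 3 in replicate 2, with 3 shared, the strongest scoring 78 and 67 at 30.99 kb upstream. Klrb1a had 2 in each, both shared, 43 and 45 being the scores of the stronger. All 5 Klrb1 genes thus had a distal shared peak, 62 in sum, and Klrb1c alone of them had a promoter peak.

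The Clec2 genes had 21 distal shared peaks over 6 genes. Clec2g had 9 distal peaks in each replicate and 5 shared, Clec2d 7 and 5 with 4 shared, and Clec2i and Clec2e 3 shared each. The strongest of Clec2d, in an intron of 2310001H17Rik 30.0 kb downstream of its TSS, scored 113 and 91, and that of Clec2e scored 65 and 59. Clec2h had 1 distal peak in each replicate, at different places. Clec2l, outside the complex, had 7 and 6 with 6 shared, the strongest scoring 86 and 72, and 3 of its 6 lay in the neighbouring gene Hipk2. Inside the complex, Clec2 genes and Klrb1 receptor genes are interleaved from Klrb1a to Clec2d.

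The receptor genes of the CD94 and NKG2 group had a median of 1 distal shared peak, equal to that of all coding genes. Klrd1, Klrk1 and Klrc1 (NKG2A, the inhibitory partner of CD94) each had 1 distal peak in each replicate, shared, and Klrc2 and Klrc3 had none. Per 100 kb of sequence nearer to the gene than to any other, Klrd1, Klrk1 and Klrc1 had 4.45, 3.80 and 3.54. The Klrk1 peak, which scored 66 in replicate 1 and 37 in replicate 2, lay 14.2 kb downstream of its TSS and is shown because it held the most matches among these 3 peaks, a choice made after its values were seen.
Klrk1 downstream, chr6:129608476-129608625: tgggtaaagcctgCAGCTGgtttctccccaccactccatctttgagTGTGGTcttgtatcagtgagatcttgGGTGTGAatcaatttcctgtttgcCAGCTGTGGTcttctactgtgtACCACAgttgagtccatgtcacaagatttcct
It held 3 TGTGGT matches, 2 CAGCTG matches and 1 GGTGTGA match, marked in capitals. The peaks of Klrc1 (34 and 28) and Klrd1 (26 and 27) scored lower than it in both replicates, and their hotspots were below the cap of the deposited −log10 q-value. Klre1, which pairs with the Klri products, had 2 distal shared peaks, the stronger scoring 87 and 75 at 18.4 kb upstream. Klri1 had no peak, and Klri2 had 1 in replicate 1 alone.

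Few peaks lay at the 11 Klra genes. Klra6 (Ly49F) had 4 and 3 distal peaks with 3 shared, scoring 35 and 30 at the strongest, and no other Klra gene had a distal shared peak. Klra8 (Ly49H), Klra7 (Ly49G) and Klra2 (Ly49B) had 1 distal peak in 1 replicate, Klra10 had 2 in replicate 2, and Klra1 had 1 in each at different places. Klra17, Klra5, Klra4 (Ly49D), Klra9 (Ly49I) and Klra3 (Ly49C) had none in either list. The distance from a Klra TSS to the nearest shared peak had a median of 98.0 kb and reached 355.0 kb at Klra1. No shared peak lay in the last 1215 kb of the complex, which holds 8 Klra genes, Klra2 included.

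Density of peaks summarises the contrast. Shared peaks numbered 5.19 per 100 kb over the complex, against 3.81 over the main chromosomes, and the replicates' own peaks averaged 6.56 ± 0.322 (SD, n = 2) per 100 kb in the complex. From Klrb1a to Clec2d the density of shared peaks was 14.6 per 100 kb, and between Klrb1 and Clec2i it was 34.0. Between Clec2d and Klre1, a run with Cd69 and myeloid lectin genes but no member, it was 10.99. That run held 43 of the 137 shared peaks of the complex. From Klre1 to Klri2 the density was 3.08, and from Klra17 to Klra1 it was 0.8997 per 100 kb. Klra2 lies apart and joins the complex only through the limit of 1 Mb between members. With the 860.5 kb from Klra1 to the end of Klra2, which hold no shared peak, the density of the Klra genes was 0.353 per 100 kb. The share of recurring words was 28.9% from Klrb1a to Clec2d and 45.8% from Klra17 to Klra2. Of all peaks in the complex, 82.0% in replicate 1 and 74.9% in replicate 2 had a counterpart in the other replicate, 78.4% ± 5.07 (SD, n = 2). Over the whole lists these shares were 67.3% and 74.8%, 71.0% ± 5.29. The difference thus lay in replicate 1, while the values of replicate 2 were nearly equal.

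**Figure D4:**
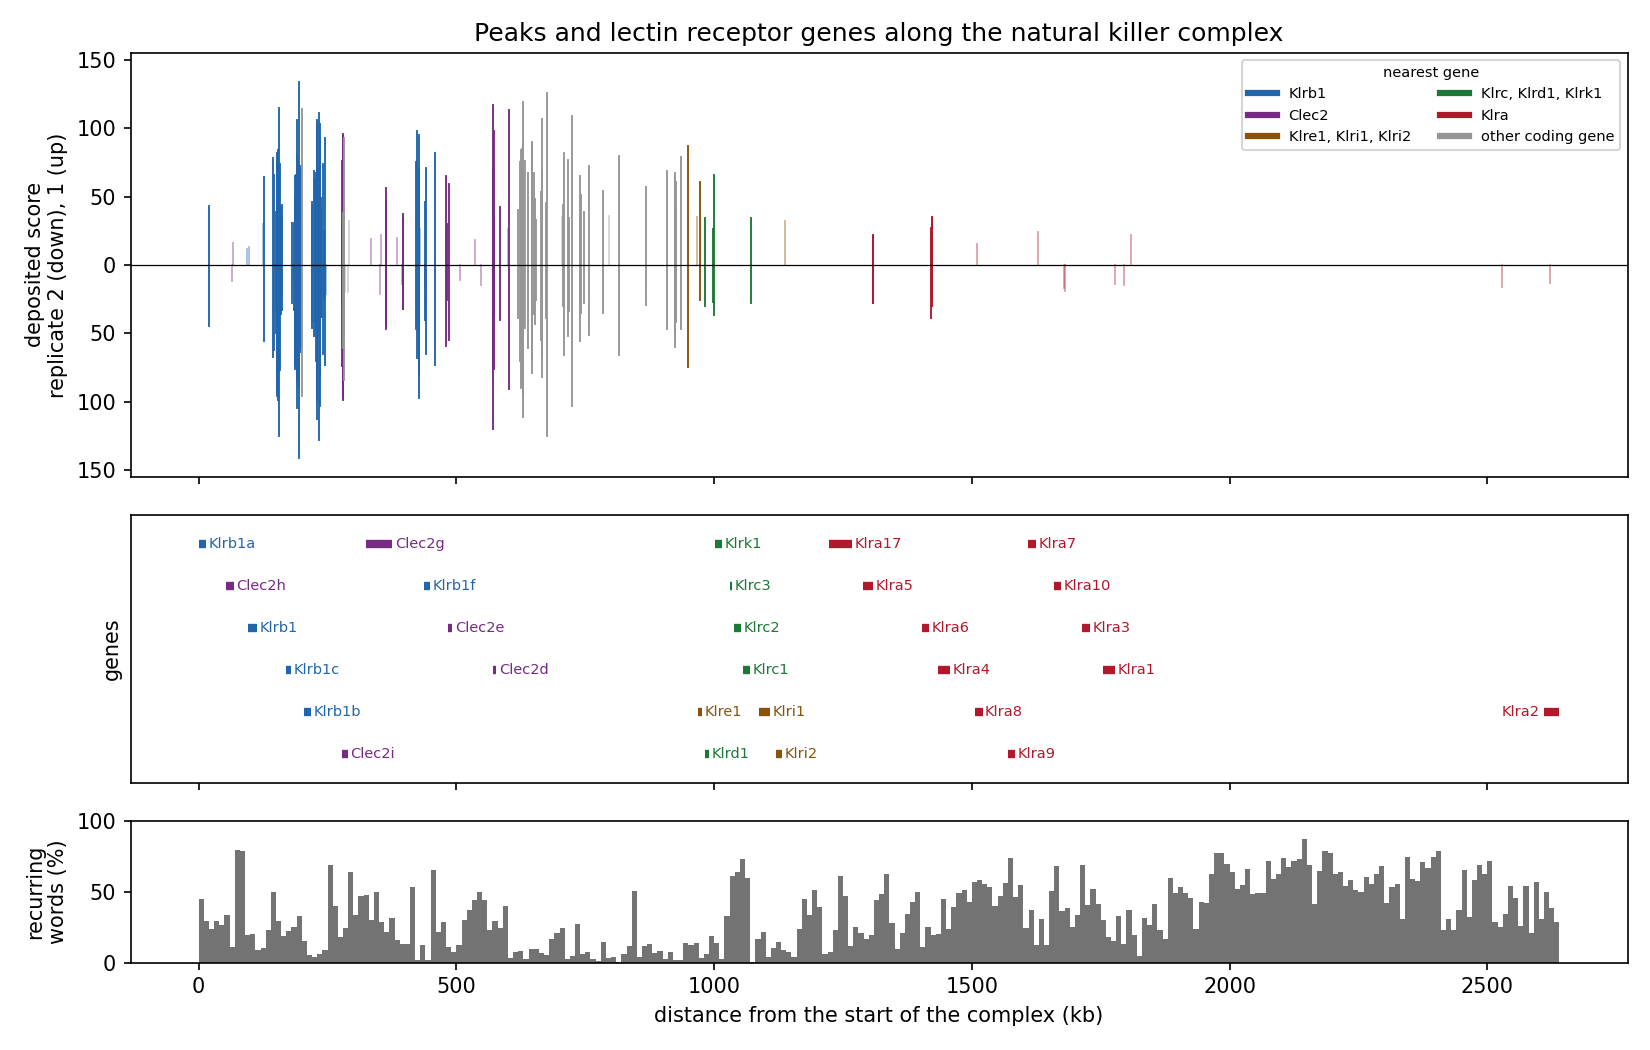
Deposited scores of peaks along the complex in kb from its start, replicate 1 upwards and replicate 2 downwards, coloured by nearest gene and pale where 1 replicate only, above the member genes and the percentage of 31-base words that recur in the assembly per 10 kb. Peaks crowd the Klrb1 and Clec2 genes and also the run between Clec2d and Klre1, which holds no member. Few low peaks fall among the Klra genes.

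Among members other than Klrb1c, 16 of 31 (51.6%) had at least 1 distal shared peak, against 65.0% of all coding genes, and their median of 1 equalled that of all coding genes. Klrg1, an inhibitory receptor for cadherins, had 4 and 5 with 4 shared, the strongest scoring 77 and 60, and Klrg2 had 3 and 2 with 1 shared. In total 96 distal shared peaks were assigned to members, 50 of them at Klrb1c and Klrb1b, and 14 members had neither a promoter peak in both replicates nor a distal shared peak. Some peaks of a list overlap each other. Joined where they overlap, the 51 shared peaks of the array came to 44 stretches and the 27 of Klrb1c to 23, a number that 1.08% of coding genes reached under the same joining, also added after the data were seen.

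Sequence words were counted in the 84 distal shared peaks of members inside the complex, on both strands. The shares were set beside those of all 78719 distal shared peaks of the same length. Unlike the 84, this larger set also includes peaks over 100 kb from any coding TSS. TGTGGT was in 19 of 84, or 22.6% (exact binomial 95% interval 14.2 to 33.0%), against 21.1% of all. GGAAGT was in 5.95% (1.96 to 13.3%) against 19.1%. The E-box words CAGCTG and CACCTG were in 11.9% and 15.5% against 16.04% and 21.8%, CTTTGAA in 4.76% against 4.80%, GGTGTGA in 3.57% against 2.64% and TGACTCA in 1.19% against 4.05%. The CTCF consensus was in 3.57% against 7.99%. Peaks that are copies of each other are not independent, so the intervals cover counting error only. The pooled share of the RUNX core does not hold for each part of the 84. It was in 6 of the 51 shared peaks of the array, which include the peak of Gm44511 that is not among the 84. Most of the 19 peaks with the RUNX core were thus among the 34 distal shared peaks of the other members in the complex. The cause of this split was not tested. In 134 flanking windows without a peak, TGTGGT was in 10.4% and GGAAGT in 6.72%.

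Genes that act with these receptors were read against the same 62.2% of all coding genes with a promoter peak in both lists. Of 15 adaptor and signalling genes, 14 were open at the promoter in both replicates and all 15 had a distal shared peak, with a median of 10. The adaptor genes Tyrobp, Hcst, Fcer1g and Cd247 had promoter scores of 50 and 58, 82 and 91, 45 and 26, and 110 and 104. Several of these genes, such as Lck, Zap70 and Cd247, also serve the T cell receptor. Sh2d1b1, an adaptor gene of NK cells, had no promoter peak. Of 9 ligand genes outside the complex, 6 were open at the promoter in both replicates, a share close to that of all coding genes. They were the MHC class I genes H2-K1, H2-D1 and H2-T23, the Klrg1 ligand gene Cdh1, and Ulbp1 and H60b, which code for Klrk1 ligands and scored 92 and 96, and 41 and 25. The other Klrk1 ligand genes listed, Raet1d, Raet1e and H60c, had no promoter peak in either list. Inside the complex the promoters of 5 of 14 other coding genes were open in both lists, and Cd69, an early activation antigen gene between the Clec2 and Klre1 genes, had 18 distal shared peaks and promoter scores of 107 and 82.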

How the data were processed

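DNase-seq peaks and hotspots of thymus from 2 replicates of 1 group were used. Per the text deposited with the files, they were called for each library on mm10; read totals, aligner, peak caller and thresholds are not given in the sources used, and depth is unknown. The deposited peaks carry a score whose meaning is not given and which never exceeds the peak width of 150 bp; it was used to rank peaks within a list. For hotspots the deposited value is the −log10 of their q-value, lowest at 1.30 and capped at 100. Every file position lay inside the GRCm38 assembly.

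Coding TSSs came from GENCODE M21. A peak as near to the TSSs of 2 genes counted for both. Words of 31 bases were counted on both strands of the RefSeq GRCm38.p6 assembly, without patches. Similar places were found with BLAST 2.17.0 (expect limit 1e-10, each peak with 100 bp on both sides, at least 100 peak bases aligned), and called open where a shared peak lay within 150 bp of the aligned midpoint. Python 3.11.15, numpy 2.4.6, numba 0.67.0 and scipy 1.17.1 were used. Counting was tested on simulated peaks.

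The members and lists were chosen with earlier results of these data known. Any member could be named; of other genes, those listed as markers, partners, ligands or neighbours and hosts of named peaks. Named peaks were the strongest shared promoter peak of each member, the 5 strongest distal ones of Klrb1c and the strongest of each other member; further peaks, the blocks, the similar places and the Clec2i pair were chosen after the data were seen. Clec7a was not matched in the annotation. Alternatives changed the overlap, score, window, limit, start sites, background, word length, hotspots and replicates.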

Additional observations from a re-analysis of the deposited data

How the results depend on the processing

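The main values were 6 members with a promoter peak in both replicates, 27 distal shared peaks at Klrb1c, 69 at the other members, 16 of these members with at least 1, and 5.19 shared peaks per 100 kb. With the stronger 50% of peaks they were 2, 17, 40, 10 and 3.11. With TSSs of all biotypes, Klrb1c had 17 and the other members 28. With a reciprocal overlap of 50% the density was 4.74. With all peaks of replicate 2 alone or replicate 1 alone, the density was 6.33 to 6.79, the promoter count 6 to 8, Klrb1c 30 to 39, the other members 91 to 94 and their genes 20 to 21. With alternatives added after the data were seen, peaks with at most 10% of recurring words gave 7, 43 and 3.22 per 100 kb. The 43 include peaks outside the complex, to which this filter was not applied. Joining overlapping peaks gave 4.59 per 100 kb. With flanking windows as the background, the ratio of peaks with a word to the background moved from 1.07 to 2.16 for TGTGGT, from 0.311 to 0.886 for GGAAGT, from 0.742 to 2.28 for CAGCTG, from 0.709 to 4.15 for CACCTG, and from 1.35 to 4.79 for GGTGTGA. It was 1.06 for CTTTGAA and 0.532 for TGACTCA, and no flank held the CTCF consensus, so that ratio has no value. Words of 24 bases gave a median of 20.8% at member promoters against 13.03%. The cause of these shifts was not tested. A window of 2500 bp, hotspots, a limit of 50 kb and a distal limit of 2500 bp kept the counts they touch within 1.5 times the main ones. Depth is unknown, so a site without a peak was not detectable in these lists, not shown to be closed. No paired analysis was possible because there is 1 group.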
